A study of Mus musculus with 12 samples.

Results

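A set of 31 mouse nuclear receptor genes, chosen by symbol, was followed among the 55487 genes of the count table. RNA came from macrophages of mouse hearts on day 2 after ischemia/reperfusion injury (I/R), with 3 libraries in each of 4 groups. CD45.2 macrophages of the infarct zone (CD45.2 IZ) and of the remote zone (CD45.2 RZ) were host cells and are called resident. CD45.1 macrophages of the infarct zone (CD45.1 IZ) and of the remote zone (CD45.1 RZ) came from donor bone marrow and are called recruited.

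All cells came from chimeric adult mice. The hosts were CD45.2; Mx1CreMybflox/flox animals whose marrow was ablated with 4 injections of poly(I:C), which induces the Mx1-Cre and so deletes Myb, and the donors were C57BL/6 CD45.1 (Ly5.1) mice. Injury followed 4 weeks after transplantation, and about 1000 macrophages (CD45+/lin-/CD11b+/F4/80+/CD64+) were sorted per library after enzymatic digestion. Host and donor genotype, including exposure of host cells to poly(I:C) and Cre, change together with the population and cannot be told apart from it. A CD45.2 cell is a host cell. By the study's methods, donor chimerism was checked and found high, though not stated to be complete, and whether some CD45.2 macrophages came from host marrow that was left was not tested. No uninjured heart was among the libraries, so the remote zone of injured hearts is the only comparison for the infarct zone.

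The nuclear receptors are transcription factors that most often work as sensors: a fat-soluble ligand such as a steroid, thyroid hormone, vitamin D, retinoic acid or an oxysterol binds the receptor, and the receptor turns its target genes on or off together with coactivators or corepressors. Many of them bind DNA as a pair with a retinoid X receptor (RXR), others as homodimers, and some, such as the NR4A and REV-ERB proteins, are controlled mainly through how much of the protein is made or through heme. In macrophages the family is known for setting lipid handling, the response to glucocorticoids and the tone of inflammatory genes.

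Total counts per library were between 33253340 and 63435529, with a median of 52790784.5. All 7 macrophage markers were detected in every library, with sums between 6881 and 9395 CPM (counts scaled to library size by TMM). Among them Adgre1 and Csf1r were higher and Itgam and Fcgr1 lower in CD45.2 in both zones, and Mertk was higher in the infarct zone. Adgre1, like Itgam and Fcgr1, is a gene of the sorting gate. On the first principal component, with 66.8% of the variance, the populations lay apart. On the second, with 12.6%, 4 libraries lay apart from the other 8, namely S107 (CD45.2 IZ), S105 (CD45.1 IZ), S106 (CD45.2 RZ) and S104 (CD45.1 RZ), which are replicate 1 of each group as numbered here in the order of the sample records. The library numbers form 3 runs of 4, each with 1 library of each group, and in their deviations from the group means all 12 libraries correlated best with a library of their own run. The labels do not say what a run shares. In each zone 8 of 11 tested cardiomyocyte markers were higher in CD45.2. The sums of that list were 47.8 to 111.9 CPM in CD45.2 IZ against 19.3 to 27.7 CPM in CD45.1 IZ, and 57.1 to 131 CPM in CD45.2 RZ against 17.9 to 28 CPM in CD45.1 RZ. Fibroblast markers had sums of 16.9 to 1185 CPM in CD45.2 IZ against 6.34 to 166 CPM in CD45.1 IZ, and 134 to 484 CPM in CD45.2 RZ against 17.4 to 108.3 CPM in CD45.1 RZ, and 0 of 10 passed the test in either zone. Neutrophil markers had sums of 67.7 to 86.7 CPM in CD45.2 IZ against 99.5 to 150 CPM in CD45.1 IZ, and 71.0 to 79.3 CPM in CD45.2 RZ against 143 to 202 CPM in CD45.1 RZ. Of these 9 markers 4 were tested. In the infarct zone 0 passed, and in the remote zone 1 passed, lower in CD45.2. By the study's methods, both populations were sorted from both zones of chimeric hearts, so libraries of different groups may share an animal. No label ties a library to an animal, and the main fit did not pair libraries. Its p-values measure the spread between these libraries, which may be technical. In bulk RNA, fewer cells that express a gene and less of its RNA per cell cannot be told apart. The part that other cells, or the 4 libraries that lay apart, had in the differences below was not tested unless a value is given.

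The most abundant nuclear receptor transcript per length was Nr4a1. Nr4a1 encodes NUR77, an orphan receptor that is switched on within minutes of cell stimulation. Its mean level per kilobase of exon was 88.8 CPM per kb in CD45.2 IZ, 149 in CD45.1 IZ, 84.5 in CD45.2 RZ and 119 in CD45.1 RZ. This gene alone made up 33.1 to 37.0% of the summed level per length of all 31 genes in CD45.2 IZ libraries, 41.2 to 50.9% in CD45.1 IZ, 21.5 to 39.5% in CD45.2 RZ and 39.2 to 45.8% in CD45.1 RZ. Whether the digestion and sorting of the cells changed the level of Nr4a1 was not tested. Nr1h2, which encodes the oxysterol receptor LXRβ, came second in every group, at 34.3 to 37.5 CPM per kb.

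Below these, the order differed between the populations. In CD45.2 the glucocorticoid receptor gene Nr3c1 had rank 4 in the infarct zone, at 20.98 CPM per kb, and rank 3 in the remote zone, at 30.2 CPM per kb, whereas in CD45.1 it had rank 7 in both zones, at 12.3 and 12.8 CPM per kb. The retinoic acid receptor gene Rara had rank 7 in both CD45.2 groups, at 10.3 CPM per kb in the infarct and 7.31 in the remote zone, and in CD45.1 rank 4 in the infarct zone, at 18.3, and rank 3 in the remote zone, at 18.4. Ranks are descriptive and were not tested. At the other end, Nr2f1, Ppara and Nr1h4 were too low to be tested, and Nr2f2, Rxrg, Rarb and Nr6a1 were tested but stayed under 4 CPM in every library.

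**Figure D1:**
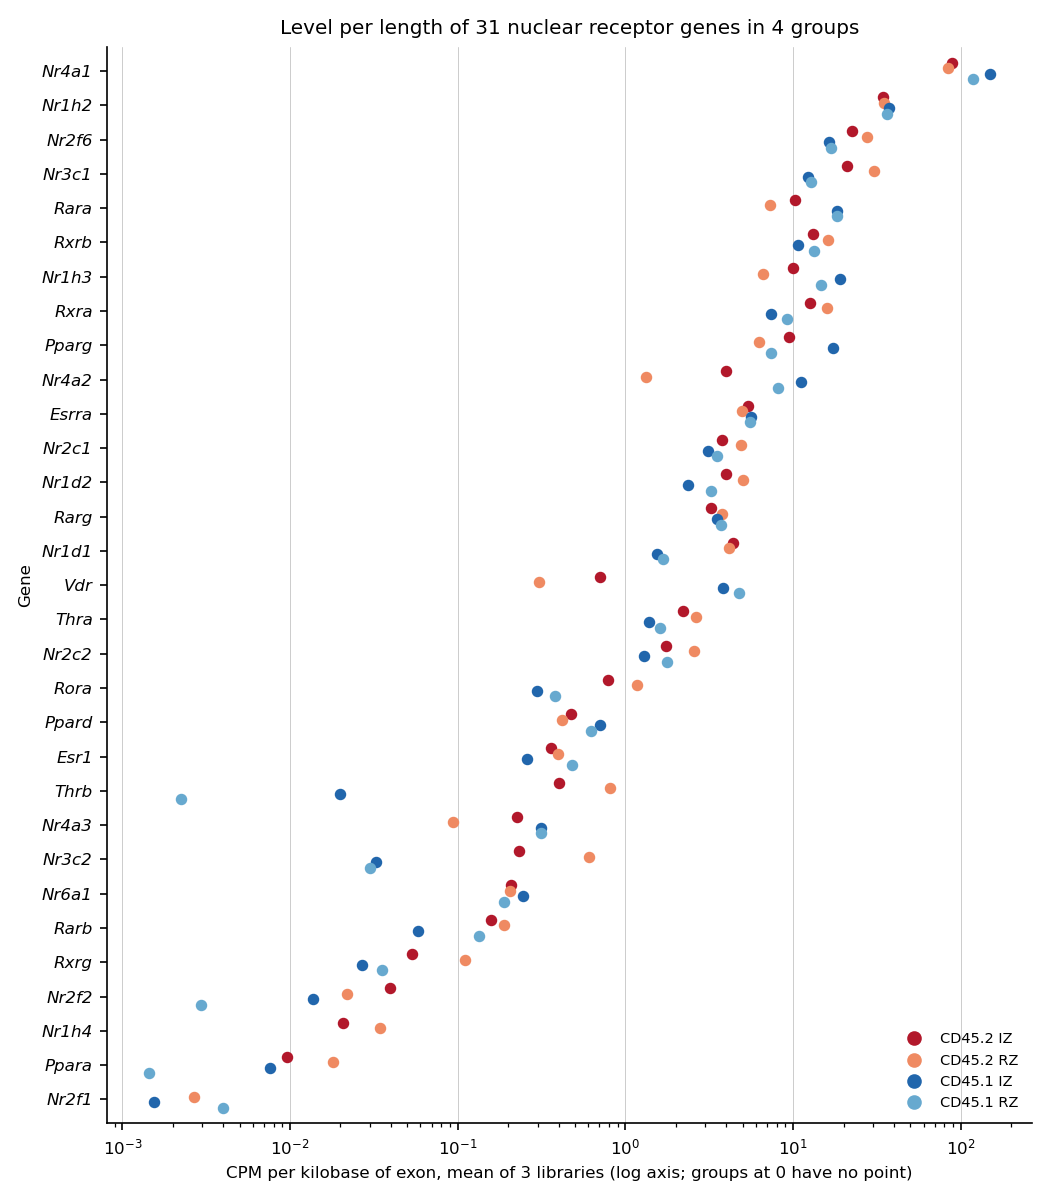
Mean level per kilobase of exon (CPM per kb, log axis) of the 31 nuclear receptor genes, ordered by their mean over 12 libraries, with 1 point per group (n = 3 libraries) and no point where a group was at 0. Nr4a1 and Nr1h2 lie at the top in all groups, and for Vdr, Thrb and Nr3c2 the CD45.2 (red and orange) and CD45.1 (blue) points lie far apart.

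Between the populations, 8 of the 28 tested genes passed in the infarct zone and 12 in the remote zone, where adjusted p is from the quasi-likelihood test of edgeR after Benjamini and Hochberg, over 18773 genes, with a threshold of 0.05. Positive log2 fold changes are higher in CD45.2. In the infarct zone, Nr3c1, Nr3c2, Rxra, Thrb and Rora were higher in CD45.2, and Nr4a2, Rara and Vdr were lower. Over all genes 19.5% passed there, 12% higher and 7.56% lower. Those 8 genes passed in the same directions in the remote zone, where Nr2c1 and Nr2f6 were also higher and Nr1h3 and Nr4a3 were also lower. Over all genes 32.0% passed there, 16.2% higher and 15.8% lower. The shares among the tested nuclear receptor genes were 28.6% in the infarct and 42.9% in the remote zone. The median log2 fold change of CD45.2 over CD45.1 was 0.37 in each zone, against 0.04 over all genes in each. The 3 libraries of the populations did not overlap for 9 higher and 6 lower genes in the infarct zone and for 9 higher and 7 lower in the remote zone, where 41.3% and 42.1% of all genes did not overlap. These calls are from the fit without pairing. With the run of library numbers as a block, an alternative added after the data were seen, 17 nuclear receptor genes passed in each zone. The block ended 0 of the calls. Over all genes 5741 passed with it in the infarct and 8126 in the remote zone, against 3666 and 6012 without it.

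**Figure D2:**
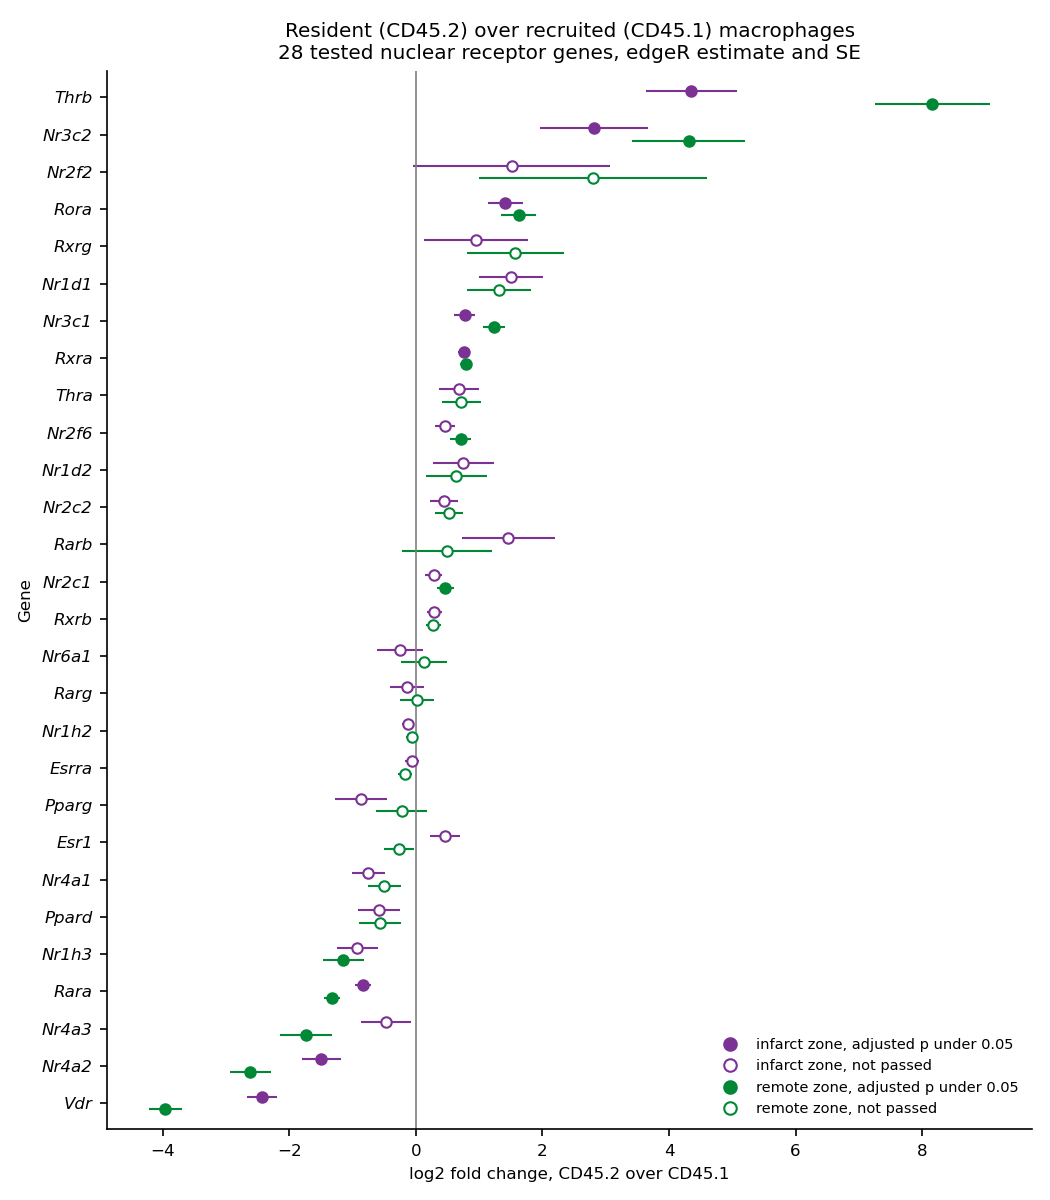
Log2 fold change of CD45.2 over CD45.1 macrophages (points) with its standard error (bars) for the 28 tested nuclear receptor genes, in the infarct (purple) and the remote zone (green), with filled points for adjusted p under 0.05. Estimates run between -3.96 for Vdr and 8.16 for Thrb, both in the remote zone.

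**Figure D3:**
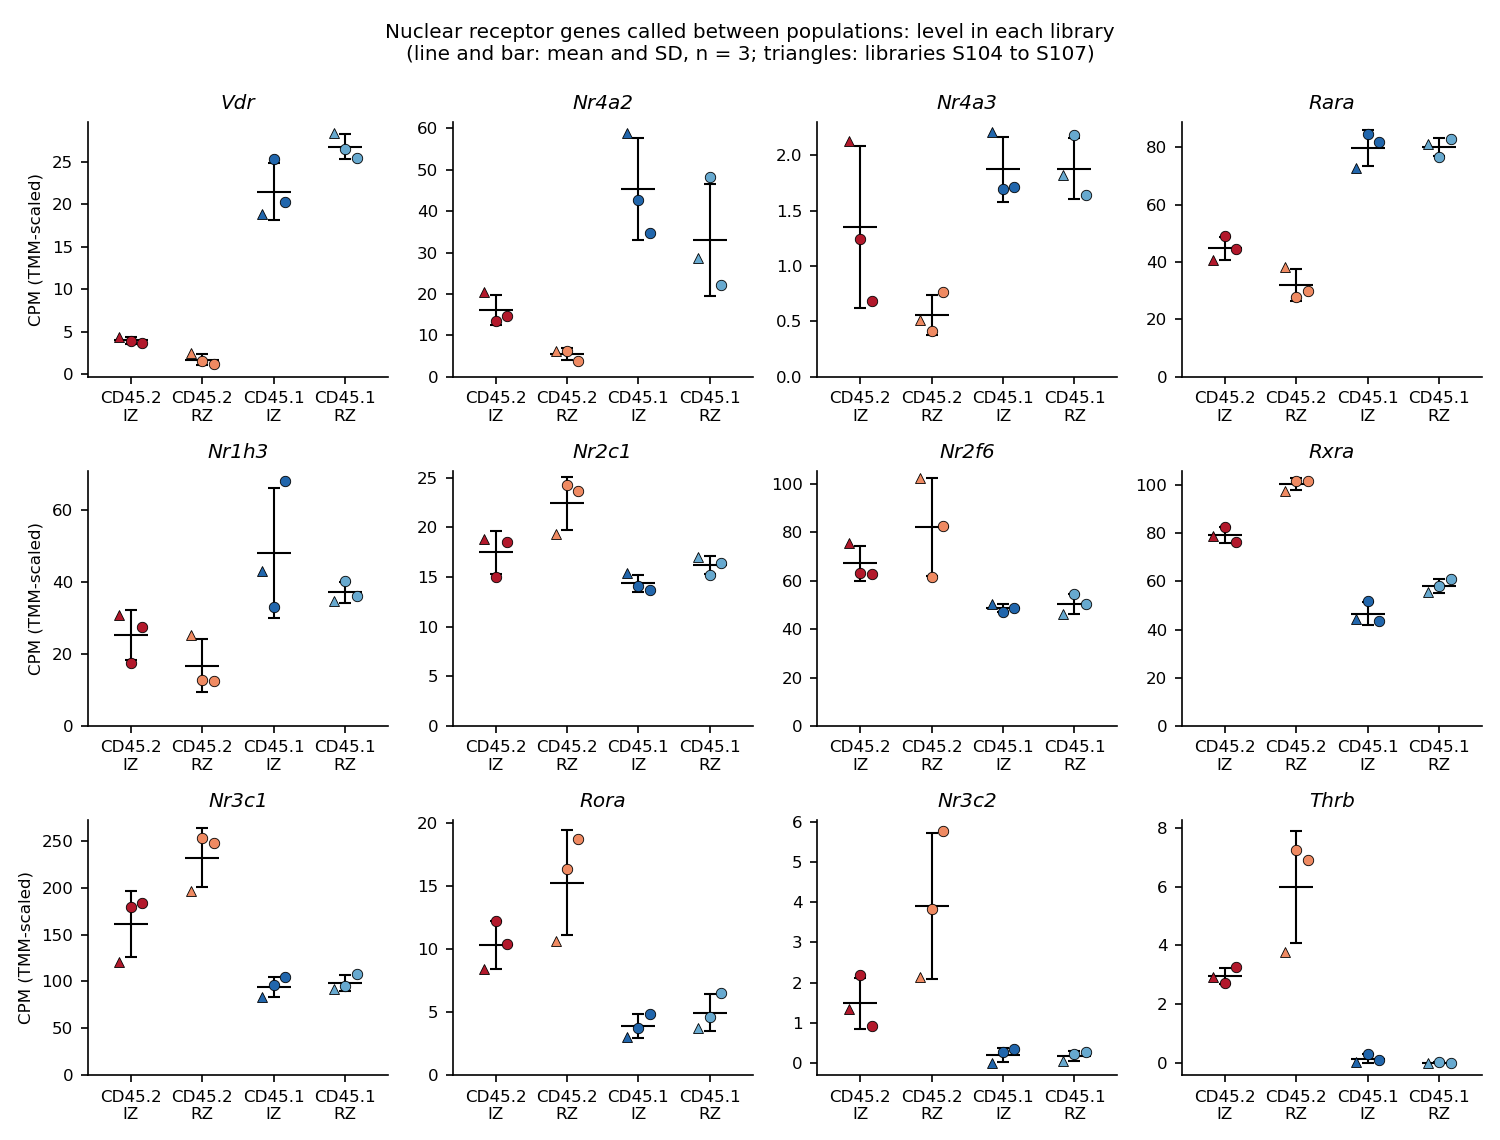
Level in each library (CPM, linear axis) of the 12 nuclear receptor genes that passed between the populations in at least 1 zone, in the order CD45.2 IZ, CD45.2 RZ, CD45.1 IZ and CD45.1 RZ. Lines and bars are means and SD (n = 3), and triangles are libraries S104 to S107. The CD45.2 and CD45.1 libraries overlap only for Nr4a3 and Nr2c1, in the infarct zone. Of all genes, 41.3% do not overlap in the infarct and 42.1% in the remote zone.

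Vdr had the largest difference toward CD45.1. Vdr encodes the receptor for the active form of vitamin D, which binds DNA together with RXR, and it lies at chr15:97854425-97910630 on the minus strand (GRCm38, ENSMUSG00000022479). In the infarct zone it had 4.43, 3.87 and 3.62 CPM in the CD45.2 libraries, against 18.9, 25.3 and 20.3 CPM in the CD45.1 libraries. In the remote zone it had 2.48, 1.52 and 1.18 CPM in CD45.2, against 28.4, 26.5 and 25.5 CPM in CD45.1. No CD45.2 library came near a CD45.1 library. The log2 fold change was -2.44 (SE 0.237, adjusted p = 3.85e-05) in the infarct and -3.96 (SE 0.255, adjusted p = 1.46e-06) in the remote zone in edgeR. Genes of vitamin D metabolism, Cyp27b1, which makes the active hormone, and Cyp24a1, which breaks it down, were too low to be tested.

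The stretch around the RefSeq start of Vdr is shown because this gene had the largest difference toward CD45.1. This stretch lies inside the gene span given above. It is the RefSeq promoter chr15:97908247-97908546 (minus strand, GRCm38.p6), 250 bases before to 50 bases after the start, with the GC-box letters GGGCGG in capitals. The motif was searched on both strands.
Vdr: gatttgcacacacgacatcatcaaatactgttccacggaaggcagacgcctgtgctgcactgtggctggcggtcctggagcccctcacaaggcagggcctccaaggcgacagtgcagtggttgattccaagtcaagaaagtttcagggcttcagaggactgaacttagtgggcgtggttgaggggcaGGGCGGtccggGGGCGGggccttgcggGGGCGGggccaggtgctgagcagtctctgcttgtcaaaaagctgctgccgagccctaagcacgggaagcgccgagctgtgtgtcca
GGGCGG occurred 3 times there, and 10.71% of the 32851 promoters of the table held it 3 times or more, so this count is common. The letters AGGTCA, to which many nuclear receptors bind, and CACGTG, the E-box of the clock, were not in this window, and 16.26% and 7.15% of the promoters held them.

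Among the receptors for retinoic acid and their partners, Rara and Rxra differed in opposite directions. Rara, the retinoic acid receptor alpha gene (chr11:98927818-98974942, plus strand, ENSMUSG00000037992), had 40.9, 49.0 and 44.4 CPM in CD45.2 IZ, against 72.7, 84.6 and 81.8 CPM in CD45.1 IZ. Remote zone libraries had 38.2, 27.7 and 29.8 CPM in CD45.2, against 81.1, 76.5 and 82.8 CPM in CD45.1. All CD45.2 libraries lay below all CD45.1 libraries. On the log2 scale the difference was -0.83 (SE 0.128, adjusted p = 0.000979) in the infarct and -1.33 (SE 0.129, adjusted p = 2.15e-05) in the remote zone.

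Rxra, which encodes the common partner RXRα (chr2:27676440-27762957, plus strand, ENSMUSG00000015846), had 78.8, 82.7 and 76.2 CPM in CD45.2 IZ, against 44.4, 52.0 and 43.3 CPM in CD45.1 IZ. The remote zone values were 97.4, 101.7 and 101.8 CPM in CD45.2, against 55.4, 58.2 and 61.2 CPM in CD45.1. Here every CD45.2 library lay above every CD45.1 library, with little spread within groups. In the infarct zone the log2 fold change was 0.77 (SE 0.0947, adjusted p = 0.000219), and it was 0.78 (SE 0.0945, adjusted p = 0.000101) in the remote one. Rxrb, the second RXR gene, did not pass, with 0.29 (adjusted p = 0.0994) and 0.28 (adjusted p = 0.0889). Rarg did not pass either, at -0.13 and 0.02. Rxrg and Rarb were at most 0.308 and 1.75 CPM in any library and did not pass. Rarb shares 1793 of its 5265 exon bases with Top2b on the other strand, so its counts are uncertain.

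The NR4A genes encode orphan receptors without a known classical ligand and are early response genes. Of the 3, Nr4a2 was lower in CD45.2 in both zones. Nr4a2, which encodes NURR1 (chr2:57106830-57124003, minus strand, ENSMUSG00000026826), had 20.4, 13.4 and 14.6 CPM in CD45.2 IZ, against 58.8, 42.6 and 34.7 CPM in CD45.1 IZ. Values in the remote zone were 6.24, 6.22 and 3.76 CPM in CD45.2, against 28.7, 48.2 and 22.3 CPM in CD45.1. The groups did not overlap in either zone. CD45.2 minus CD45.1 was, on the log2 scale, -1.49 (SE 0.312, adjusted p = 0.00649) in the infarct and -2.61 (SE 0.327, adjusted p = 0.000133) in the remote zone.

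Nr4a3, which encodes NOR1 (chr4:48045153-48086447, plus strand, ENSMUSG00000028341), was low in all groups, and in the remote zone it was lower in CD45.2. It had 2.13, 1.24 and 0.684 CPM in CD45.2 IZ, against 2.21, 1.69 and 1.71 CPM in CD45.1 IZ, which overlap. In the remote zone it had 0.511, 0.411 and 0.762 CPM in CD45.2, against 1.82, 2.18 and 1.64 CPM in CD45.1, which do not. The log2 fold change was -0.47 (SE 0.394, adjusted p = 0.432) in the infarct and -1.74 (SE 0.408, adjusted p = 0.00744) in the remote zone. Nr4a1, the abundant member, had 289, 342 and 304 CPM in CD45.2 IZ, against 605, 504 and 465 CPM in CD45.1 IZ, without overlap. Remote zone libraries had 168, 400 and 321 CPM in CD45.2, against 362, 506 and 385 CPM in CD45.1. It did not pass, with -0.75 (SE 0.258, adjusted p = 0.0627) in the infarct and -0.50 (SE 0.257, adjusted p = 0.161) in the remote zone. The infarct difference of Nr4a1 passed in DESeq2 (-0.76, adjusted p = 0.0213), in limma-voom (-0.64, adjusted p = 0.011) and without CD45.2 RZ replicate 1 (-0.75, adjusted p = 0.00643) or 2 (-0.78, adjusted p = 0.0371).

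The promoters of the 3 NR4A genes are shown because they are known to be induced through CREB, and the letters TGACG, the core of the CREB site, stand in capitals wherever they occur on either strand, as CGTCA on the other one, with overlapping matches counted. The RefSeq windows are chr15:101266596-101266895 (plus strand) for Nr4a1, chr2:57123954-57124253 (minus strand) for Nr4a2 and chr4:48045055-48045354 (plus strand) for Nr4a3, all on GRCm38.p6 and each 300 bases long.
Nr4a1: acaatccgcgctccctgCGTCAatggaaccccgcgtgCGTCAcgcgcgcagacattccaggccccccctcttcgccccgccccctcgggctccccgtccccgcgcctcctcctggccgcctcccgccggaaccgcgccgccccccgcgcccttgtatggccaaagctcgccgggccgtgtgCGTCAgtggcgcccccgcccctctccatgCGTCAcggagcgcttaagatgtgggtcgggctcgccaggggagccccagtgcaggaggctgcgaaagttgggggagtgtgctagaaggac
Nr4a2: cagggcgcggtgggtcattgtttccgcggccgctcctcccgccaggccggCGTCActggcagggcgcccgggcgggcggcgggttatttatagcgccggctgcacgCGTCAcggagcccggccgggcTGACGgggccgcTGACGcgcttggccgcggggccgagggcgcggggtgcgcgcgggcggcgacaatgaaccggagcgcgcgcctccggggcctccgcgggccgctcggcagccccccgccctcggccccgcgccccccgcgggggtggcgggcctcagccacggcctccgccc
Nr4a3: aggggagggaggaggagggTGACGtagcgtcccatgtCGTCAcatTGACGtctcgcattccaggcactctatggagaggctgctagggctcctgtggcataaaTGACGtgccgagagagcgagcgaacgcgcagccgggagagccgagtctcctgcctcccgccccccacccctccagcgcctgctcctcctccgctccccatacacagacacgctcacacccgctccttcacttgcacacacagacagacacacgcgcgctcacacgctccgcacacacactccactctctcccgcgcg
Each of these promoters held the motif 4 times. Of the 32851 promoters of the same length in the table, 20.81% held it at least once and 0.23% held it 4 times or more. The match is a description of the letters and says nothing about binding in these cells.

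The receptors for adrenal steroids were higher in CD45.2. Nr3c1, the glucocorticoid receptor gene (ENSMUSG00000024431), had 121, 179 and 184 CPM in CD45.2 IZ, against 83.2, 95.9 and 104.3 CPM in CD45.1 IZ. The remote zone values were 196, 253 and 248 CPM in CD45.2, against 91.8, 95.3 and 108.5 CPM in CD45.1. The populations did not overlap in either zone, and in all 4 groups the lowest library was one of the 4 that lay apart. On the log2 scale the difference was 0.77 (SE 0.168, adjusted p = 0.00808) in the infarct and 1.24 (SE 0.169, adjusted p = 0.000254) in the remote zone.

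Nr3c2, the mineralocorticoid receptor gene (chr8:76899442-77245012, plus strand, ENSMUSG00000031618), was low. It had 1.36, 2.19 and 0.936 CPM in CD45.2 IZ, against 0, 0.282 and 0.347 CPM in CD45.1 IZ. Values in the remote zone were 2.14, 3.84 and 5.75 CPM in CD45.2, against 0.0575, 0.233 and 0.294 CPM in CD45.1. These are 203 against 30 counts in the infarct zone, a ratio of 6.74 (95% counting interval 4.58 to 10.2), and 632 against 31 counts in the remote zone, a ratio of 20.5 (14.3 to 30.4). Counting error is all that such intervals cover. CD45.2 minus CD45.1 was, on the log2 scale, 2.82 (SE 0.857, adjusted p = 0.0392) in the infarct and 4.31 (SE 0.892, adjusted p = 0.00365) in the remote zone. The infarct call was lost without CD45.2 IZ replicate 1, 2 or 3 (adjusted p = 0.0528, 0.122 and 0.0579), CD45.1 IZ replicate 2 or 3 (0.0906 and 0.0631), CD45.2 RZ replicate 2 (0.0554) or CD45.1 RZ replicate 2 (0.0552), and with the libraries of the infarct zone alone (0.0715). Nr3c2 shares 247 of 6474 exon bases with Gm10649. Esr1, the estrogen receptor alpha gene, did not pass, with 0.46 in the infarct and -0.27 in the remote zone.

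Of the thyroid hormone receptor genes, Thrb had the largest difference toward CD45.2. Thrb (chr14:17660261-18038090, plus strand, ENSMUSG00000021779) had 2.94, 2.71 and 3.26 CPM in CD45.2 IZ, against 0.0201, 0.306 and 0.116 CPM in CD45.1 IZ. In the remote zone it had 3.78, 7.23 and 6.90 CPM in CD45.2, while 2 of the CD45.1 libraries had 0 counts and the other had 0.05 CPM. This is 435 against 20 counts in the infarct zone, a ratio of 21.7 (95% counting interval 13.9 to 35.8), and 950 against 3 counts in the remote zone, a ratio of 318 (108.4 to 1543). The log2 fold change was 4.35 (SE 0.718, adjusted p = 0.0015) in the infarct zone. In the remote zone it was 8.16 (SE 0.910, adjusted p = 5.68e-05), a value that depends on the small number added to low counts in the fit.

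The sums of cardiomyocyte markers, which were also higher in CD45.2, were 47.8, 74.4 and 111.9 CPM in the same CD45.2 IZ libraries in the same order, and 57.1, 77.8 and 131 CPM in CD45.2 RZ. Those of fibroblast markers were 16.9, 309 and 1185 CPM in CD45.2 IZ, and 134, 484 and 401 CPM in CD45.2 RZ. Of the 7 remote zone genes that passed as higher in CD45.2, Thrb, Nr3c1 and Nr2c1 had the order of the fibroblast sums among the CD45.2 RZ libraries, and Nr3c2, Rxra and Rora had that of the cardiomyocyte sums. Of the 5 such genes in the infarct zone, Nr3c1 had the order of both sums among the CD45.2 IZ libraries, and the other 4 had that of neither. Endothelial marker sums in CD45.2 RZ, at 11.5, 91.7 and 131 CPM, had the order of the cardiomyocyte sums too. So did mural sums, at 5.13, 14.4 and 25.8 CPM, and neutrophil sums, at 71.0, 75.2 and 79.3 CPM. Those lists had the cardiomyocyte order in CD45.2 IZ as well. It is also the order of the library numbers. Over all 28 tested genes, 8 or 9 had the order of a given sum in a given zone. The part of those cells in these results was not tested. The second gene, Thra, did not pass, with 0.68 (adjusted p = 0.152) in the infarct and 0.72 (adjusted p = 0.0974) in the remote zone. Thra passed under 5 of 21 alternatives in the infarct and 6 of 21 in the remote zone. Among these were limma-voom (adjusted p = 0.0178 and 0.0222) and the fit without S104 to S107 (0.0207 and 0.00726). It shares 263 exon bases with Nr1d1, which is read from the other strand.

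Rora and the REV-ERB genes belong to the circadian clock, where RORα activates and the REV-ERB proteins repress the same target genes. Rora (chr9:68653786-69388246, plus strand, ENSMUSG00000032238) had 8.40, 12.2 and 10.4 CPM in CD45.2 IZ, against 3, 3.76 and 4.85 CPM in CD45.1 IZ. Remote zone libraries had 10.7, 16.3 and 18.7 CPM in CD45.2, against 3.70, 4.62 and 6.53 CPM in CD45.1. The populations did not overlap in either zone, and in all 4 groups the lowest value belonged to the library among S104 to S107. On the log2 scale the difference was 1.41 (SE 0.281, adjusted p = 0.00489) in the infarct and 1.62 (SE 0.281, adjusted p = 0.0012) in the remote zone.

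Nr1d1, which encodes REV-ERBα, had 7.12, 14.6 and 18.5 CPM in CD45.2 IZ, against 2.98, 5.50 and 5.74 CPM in CD45.1 IZ. The remote zone values were 5.09, 20.4 and 12.8 CPM in CD45.2, against 2.97, 6.10 and 6.30 CPM in CD45.1. In every group the lowest value belonged to the library among S104 to S107. Neither the infarct value of 1.5 (log2, SE 0.504, adjusted p = 0.0578) nor the remote value of 1.32 (SE 0.501, adjusted p = 0.0644) passed. Both passed in DESeq2 (adjusted p = 0.0123 and 0.022), and when the split of S104 to S107 from the other libraries was a covariate they were at 1.46 (adjusted p = 0.000402) in the infarct and 1.23 (adjusted p = 0.000722) in the remote zone. Nr1d2, the REV-ERBβ gene, also had its lowest value in that library in all 4 groups. It did not pass, with 0.75 and 0.64, and passed with the covariate, at 0.76 (adjusted p = 0.0161) and 0.59 (adjusted p = 0.0346).

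The lipid sensors passed in 1 case, Nr1h3 in the remote zone. Nr1h3, which encodes LXRα (chr2:91184061-91202834, minus strand, ENSMUSG00000002108), had 30.7, 17.4 and 27.6 CPM in CD45.2 IZ, against 42.9, 33.0 and 68.0 CPM in CD45.1 IZ. Values in the remote zone were 25.2, 12.7 and 12.4 CPM in CD45.2, against 34.7, 40.4 and 36.1 CPM in CD45.1. CD45.2 minus CD45.1 was, on the log2 scale, -0.92 (SE 0.323, adjusted p = 0.0661) in the infarct and -1.14 (SE 0.325, adjusted p = 0.0193) in the remote zone. The infarct difference passed in DESeq2 (adjusted p = 0.021) and without CD45.2 RZ replicate 1 (0.0267). The remote call was lost without CD45.2 RZ replicate 2 (adjusted p = 0.0725) or 3 (0.0762) or CD45.1 RZ replicate 2 (0.0601). Nr1h2, the LXRβ gene, was at 103.7 to 130.8 CPM in all 12 libraries, at -0.13 on the log2 scale in the infarct (SE 0.0955, adjusted p = 0.385) and -0.06 in the remote zone (SE 0.0954, adjusted p = 0.659).

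Pparg, the PPARγ gene of fatty acid uptake and storage, had 18.2, 31 and 35.1 CPM in CD45.2 IZ, against 32.3, 53.0 and 68.2 CPM in CD45.1 IZ. In the remote zone it had 9.95, 17.8 and 27.8 CPM in CD45.2, against 13.0, 26.9 and 25.2 CPM in CD45.1. In all groups the lowest library was that of S104 to S107, and groups overlapped in both zones. Neither the infarct value of -0.86 (log2, SE 0.406, adjusted p = 0.16) nor the remote value of -0.23 (SE 0.405, adjusted p = 0.701) passed. The infarct difference passed with the split of S104 to S107 as a covariate, at -0.86 (adjusted p = 0.00241), and without those libraries, at -0.90 (adjusted p = 0.0216). Within each of the 3 runs of library numbers CD45.2 IZ was lower than CD45.1 IZ, and with the run as a block, an alternative added after the data were seen, the difference was -0.85 (adjusted p = 0.000868). Ppard was between 1.99 and 6.62 CPM and did not pass, with -0.58 and -0.57. Esrra, which encodes the energy regulator ERRα, lay between 20.4 and 26.9 CPM in every library and did not pass, with -0.05 (SE 0.110) and -0.16 (SE 0.110).

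Among the orphan receptors, Nr2f6 and Nr2c1 passed in the remote zone, both higher in CD45.2. Nr2f6, which encodes the repressor EAR2 (chr8:71374123-71381960, minus strand, ENSMUSG00000002393), had 102.4, 61.7 and 82.7 CPM in CD45.2 RZ, against 46.2, 54.6 and 50.5 CPM in CD45.1 RZ. In the infarct zone it had 75.7, 63.3 and 62.7 CPM in CD45.2, against 50.4, 47.0 and 48.9 CPM in CD45.1. The libraries did not overlap in either zone, and the log2 fold change was 0.46 (SE 0.16, adjusted p = 0.0635) in the infarct and 0.71 (SE 0.16, adjusted p = 0.00607) in the remote zone. The infarct difference passed under 8 of 21 alternatives, among them DESeq2 (adjusted p = 0.0427) and limma-voom (0.0172). Nr2f6 shares 1622 of its 2983 exon bases with Ocel1 on the other strand, and Ocel1 had 0.37 (adjusted p = 0.109) and 0.57 (adjusted p = 0.0141), so the counts of the pair cannot be told apart.

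Nr2c1, which encodes the orphan receptor TR2 (chr10:94148023-94197211, plus strand, ENSMUSG00000005897), had 18.9, 15 and 18.5 CPM in CD45.2 IZ, against 15.4, 14.1 and 13.7 CPM in CD45.1 IZ. Remote zone libraries had 19.4, 24.3 and 23.7 CPM in CD45.2, against 17.0, 15.2 and 16.4 CPM in CD45.1. The log2 fold change was 0.28 (SE 0.134, adjusted p = 0.165) in the infarct and 0.47 (SE 0.134, adjusted p = 0.0202) in the remote zone. The remote call was lost without CD45.1 RZ replicate 1 or 2 (adjusted p = 0.0502 and 0.0888) or CD45.2 RZ replicate 2 or 3 (0.0775 and 0.0805), with no filter on low counts (0.0637), or with the libraries of the remote zone alone (0.0606). Nr2c2, the related TR4 gene, did not pass, with 0.45 and 0.53, and shares 4590 of 14935 exon bases with Mrps25. Nr2c2 passed under 2 of 21 alternatives in the infarct and 5 of 21 in the remote zone. Nr6a1, the germ cell nuclear factor gene, did not pass either, with -0.25 and 0.13.

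The lowest genes had few counts. Nr1h4, the bile acid receptor gene, had 8 counts in CD45.2 IZ, all in 1 library, and 12 in CD45.2 RZ, against 0 in CD45.1 of either zone. Ppara had 4 counts in CD45.2 IZ against 4 in CD45.1 IZ, and 11 in CD45.2 RZ, all in 1 library, against 1 in CD45.1 RZ. Nr2f1 had 0 counts in CD45.2 IZ, which allows up to 3 counts over the group, against 1 in CD45.1 IZ, and 2 in CD45.2 RZ against 3 in CD45.1 RZ. These genes were not tested. Nr2f2, a COUP-TF gene of mural, venous and stromal cells, had 45 of its 53 CD45.2 IZ counts in S115, the library with the highest fibroblast (1185 CPM) and mural (58.4 CPM) marker sums, and did not pass.

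Within CD45.2 macrophages, Nr4a2 and Vdr were higher in the infarct than in the remote zone, and no other tested nuclear receptor gene passed. Of all genes 1.76% passed in this comparison, 1.46% higher and 0.293% lower. The log2 fold change of IZ over RZ in CD45.2 was 1.58 (SE 0.317, adjusted p = 0.0311) for Nr4a2 and 1.20 (SE 0.237, adjusted p = 0.0285) for Vdr in edgeR. Vdr had 4.43, 3.87 and 3.62 CPM in CD45.2 IZ, against 2.48, 1.52 and 1.18 CPM in CD45.2 RZ. Nr4a2 had 20.4, 13.4 and 14.6 CPM in CD45.2 IZ, against 6.24, 6.22 and 3.76 CPM in CD45.2 RZ. For both genes the libraries of the zones did not overlap.

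Both calls were lost under several alternatives. Nr4a2 lost it without CD45.2 IZ replicate 1, 2 or 3 (adjusted p = 0.124, 0.0576 and 0.0584), CD45.2 RZ replicate 2 or 3 (0.0997 and 0.128), CD45.1 RZ replicate 1 (0.0502) or CD45.1 IZ replicate 2 (0.0547), and also in limma-voom (0.0629) and without S104 to S107 (0.0855). Vdr lost it without CD45.2 IZ replicate 1, 2 or 3 (0.113, 0.0793 and 0.0537), CD45.2 RZ replicate 2 or 3 (0.124 and 0.101), CD45.1 RZ replicate 1 or 2 (0.0502 and 0.0502) or CD45.1 IZ replicate 3 (0.0529). With the libraries of CD45.2 alone neither gene passed (0.0822 and 0.216). Next to these, Rara had 0.49 (SE 0.128, adjusted p = 0.0884), Nr4a3 1.26 (SE 0.407, adjusted p = 0.158), Rxra -0.34 (SE 0.094, adjusted p = 0.1) and Nr3c1 -0.53 (SE 0.167, adjusted p = 0.151), none of which passed.

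Within CD45.1 macrophages 0 of 28 nuclear receptor genes passed between the zones, and 0% of all genes did. At an unadjusted p under 0.05, 5 of the 28 did (17.9%), against 7.92% of all genes. DESeq2 called 1, Esr1, which had 3.56, 2.63 and 4.49 CPM in CD45.1 IZ, against 6.12, 5.92 and 7.67 CPM in CD45.1 RZ, without overlap. Its log2 fold change was -0.88 in both tools, with adjusted p = 0.0293 in DESeq2 and 0.362 in edgeR. Pparg had 1.24 (SE 0.409, adjusted p = 0.474) in CD45.1, and passed with the split of S104 to S107 as a covariate, at 1.25 (adjusted p = 0.0199), and with the run of library numbers as a block, at 1.24 (adjusted p = 0.00978). Limma-voom called 0. The zones did not overlap for 3 higher and 6 lower genes in CD45.2, where 19.0% of all genes did not overlap, and for 1 higher and 5 lower in CD45.1, where 15.5% did not.

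Whether the zone difference itself differed between the populations was tested as well, and 0 of 28 genes passed, as did 0% of all genes. At an unadjusted p under 0.05, 5 of the 28 did (17.9%), against 4.37% of all genes. For Vdr the zone difference was 1.20 in CD45.2 and -0.32 in CD45.1, a difference of 1.52 (SE 0.325, adjusted p = 0.207). For Thrb it was -1.01 in CD45.2 and 2.80 in CD45.1, where counts were near 0, a difference of -3.81 (SE 1.16, adjusted p = 0.519). DESeq2 called these 2 genes, with adjusted p = 0.0023 and 0.0468, limma-voom called 0, and with the run as a block Vdr passed, at 1.54 (adjusted p = 0.0454).

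**Figure D4:**
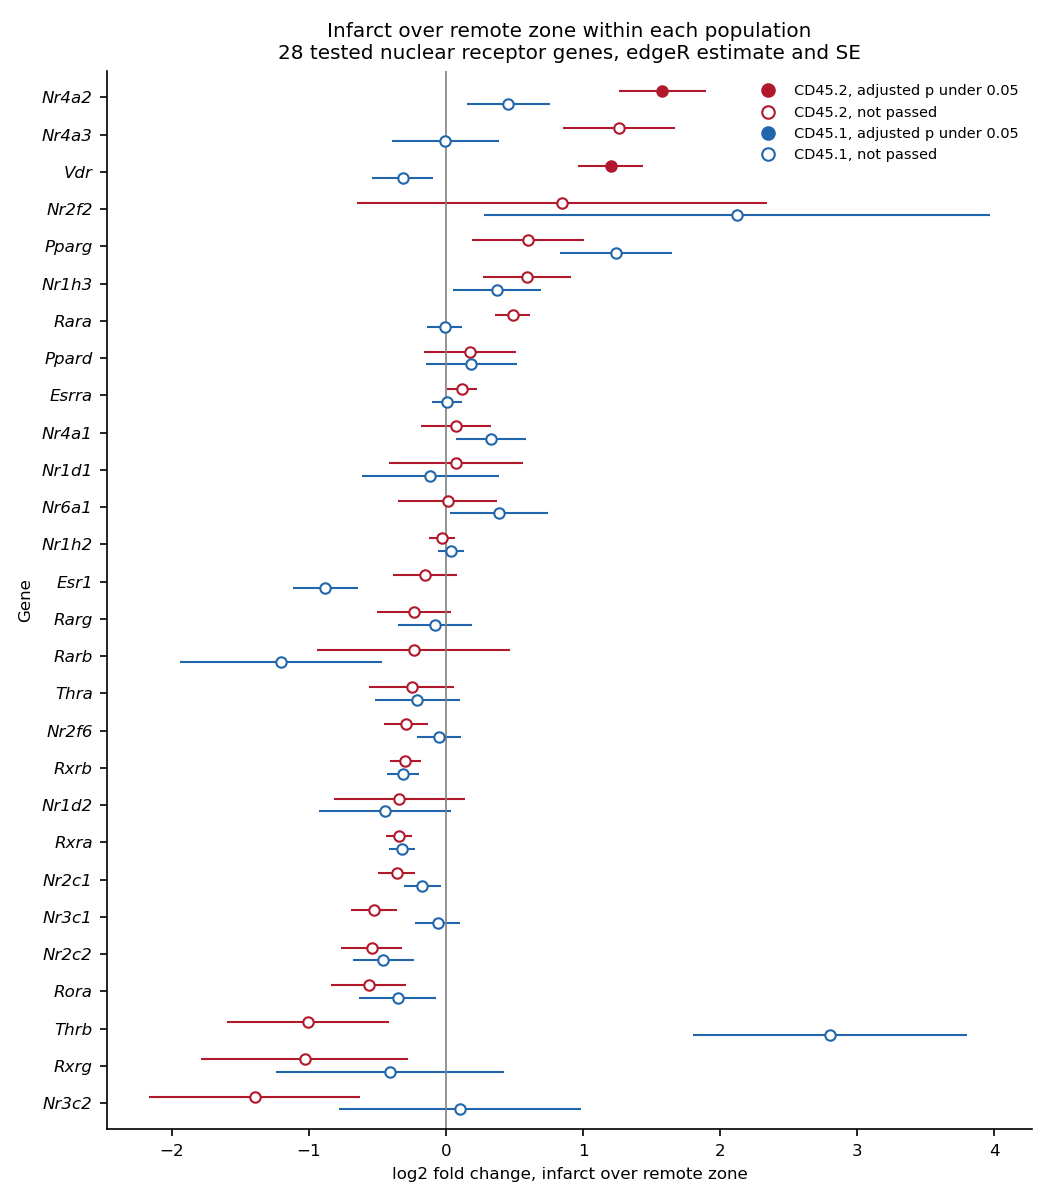
Log2 fold change of infarct over remote zone (points) with its standard error (bars) for the 28 tested nuclear receptor genes, in CD45.2 (red) and CD45.1 (blue) macrophages, with filled points for adjusted p under 0.05. The filled points are Nr4a2 and Vdr in CD45.2, at 1.58 and 1.20.

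Genes that work with the receptors were read from lists chosen by hand. Of 18 tested coregulators, Tbl1x, a subunit of the corepressor complex of NCoR and SMRT, was higher in CD45.2 in both zones, at 0.27 (adjusted p = 0.0446) in the infarct and 0.41 (adjusted p = 0.0035) in the remote zone. Hdac3, the deacetylase of that complex, was lower in both, at -0.31 (adjusted p = 0.0374) and -0.30 (adjusted p = 0.029). Med1, a Mediator subunit that contacts receptors, was lower in the infarct zone (-0.41, adjusted p = 0.023) and Tbl1xr1 in the remote zone (-0.42, adjusted p = 0.0343). The other 15 did not pass in each zone, so 16.7% passed in each, below the 19.5% of all genes in the infarct and the 32.0% in the remote zone, and the list medians were 0.00 and 0.05.

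Target genes of LXR differed in both directions. Of 15, 3 were higher in CD45.2, 4 lower and 8 missed the threshold in the infarct zone, and 2 were higher, 7 lower and 6 missed it in the remote zone, with medians of -0.21 and -0.40. Pltp, the phospholipid transfer protein gene, was higher, at 905 ± 327 CPM in CD45.2 IZ against 134 ± 16.3 CPM in CD45.1 IZ (SD, n = 3 each) and 1661 ± 180 CPM in CD45.2 RZ against 288.5 ± 69.9 CPM in CD45.1 RZ. On the log2 scale Pltp differed by 2.76 in the infarct (SE 0.26, adjusted p = 3.12e-05) and 2.53 in the remote zone (SE 0.257, adjusted p = 2.94e-05). Mylip, which limits LDL receptor, was higher in both zones and Mertk, a receptor for the uptake of dead cells, in the infarct zone. The desaturase gene Scd2 was lower, at -1.72 and -2.81, as were Apoc2, which encodes a cofactor of lipoprotein lipase, at -1.74 and -3.64, Smpdl3a at -1.30 and -1.52, and Arl4c. Abcg1, Apoc1 and Lpcat3 were lower in the remote zone. The shares that passed were 46.7% in the infarct and 60.0% in the remote zone, against 19.5% and 32.0% of all genes. Pltp, Scd2 and Apoc2 share exons with other genes.

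Of 15 PPAR targets, 2 were higher in CD45.2, 3 lower and 10 missed the threshold in the infarct zone, and 1 was higher, 3 lower and 11 missed it in the remote zone. These are 33.3% and 26.7%, against 19.5% and 32.0% of all genes, so the remote share was below that of all genes. Cd36, the fatty acid transporter gene, was higher, at 773 ± 50.5 CPM in CD45.2 IZ against 428 ± 92.7 CPM in CD45.1 IZ (SD, n = 3 each), with log2 fold changes of 0.85 (adjusted p = 0.00926) and 1.31 (adjusted p = 0.000404). Pdk4, a brake on glucose oxidation, was higher in the infarct zone. Fabp5, a fatty acid binding protein gene, was lower, at 75.5 ± 33.1 CPM in CD45.2 IZ against 319 ± 124 CPM in CD45.1 IZ and 22.5 ± 9.91 CPM in CD45.2 RZ against 502 ± 141 CPM in CD45.1 RZ. Its log2 fold changes were -2.08 and -4.48. The lipid droplet gene Plin2 was lower, at -1.12 and -1.87, and so was Slc25a20, the mitochondrial carrier of acylcarnitine, at -0.74 and -0.95.

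In the retinoid pathway 8 of 14 genes were tested, of which 2 were higher in CD45.2, 1 was lower and 5 did not pass in each zone. That is 37.5% in each, against 19.5% of all genes in the infarct and 32.0% in the remote zone. Rdh10, which starts the synthesis of retinoic acid from retinol, was higher, at 11.9 ± 1.58 CPM in CD45.2 IZ against 5.22 ± 0.81 CPM in CD45.1 IZ (SD, n = 3 each) and 19.6 ± 1.41 CPM in CD45.2 RZ against 5.90 ± 0.871 CPM in CD45.1 RZ. Its log2 fold changes were 1.19 (adjusted p = 0.000689) and 1.73 (adjusted p = 2.68e-05). Aldh1a1, which completes that synthesis, was higher too, at 3.03 and 2.91, from a low level of 1.91 ± 1.68 CPM in CD45.2 IZ against 0.234 ± 0.14 CPM in CD45.1 IZ. Aldh1a2 did not pass, at 1.88 and 1.63. Tgm2, the transglutaminase gene known as a target of retinoic acid, was lower, at -1.92 (adjusted p = 0.00373) and -3.36 (adjusted p = 7.5e-05), and shares exons with another gene.

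Of 14 glucocorticoid targets, 3 were higher in CD45.2, 1 was lower and 10 missed the threshold in the infarct zone, and 6 were higher, 1 was lower and 7 missed it in the remote zone. The shares were 28.6% and 50.0%, against 19.5% and 32.0% of all genes. Tsc22d3, which encodes the glucocorticoid-induced leucine zipper, was higher, at 442 ± 221 CPM in CD45.2 IZ against 130.5 ± 28.7 CPM in CD45.1 IZ (SD, n = 3 each) and 870 ± 215 CPM in CD45.2 RZ against 186 ± 78.2 CPM in CD45.1 RZ. Its log2 fold changes were 1.76 (adjusted p = 0.00709) and 2.22 (adjusted p = 0.00112). The metallothionein gene Mt2 stood at 1.94 and 1.72 and the transcription factor gene Zbtb16 at 2.82 and 2.89, all past the threshold. Dusp1, Klf9 and Fkbp5 were higher in the remote zone. Sgk1, a kinase gene of salt transport, was lower, at -0.88 and -1.29. Mt2 shares exons with another gene.

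Of 15 tested clock genes, 6 were higher in CD45.2, 3 lower and 6 did not pass in each zone, with medians of 0.96 and 1.43. The share was 60.0% in each, against 19.5% of all genes in the infarct and 32.0% in the remote zone. Arntl, which encodes the clock activator BMAL1 and is a target of RORα and the REV-ERB proteins, was at 42.5 ± 6.73 CPM in CD45.2 IZ against 13.6 ± 1.08 CPM in CD45.1 IZ (SD, n = 3 each) and 61.4 ± 5.63 CPM in CD45.2 RZ against 19.6 ± 2.5 CPM in CD45.1 RZ. Its log2 fold changes were 1.64 (adjusted p = 2.16e-05) and 1.65 (adjusted p = 1.04e-05). Per2, a repressor of the clock, stood at 1.96 and 1.71, and Per3, Dbp, Tef and Bhlhe41 were also higher in both zones. Bhlhe40 (-1.63 and -3.43), Nfil3 (-1.47 and -2.72) and Cry1, all repressors of transcription, were lower in both. Arntl and Bhlhe40 share exons with other genes. The hour of the day at which cells were collected is not given in the sources used here.

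Of 10 tested genes that make or move ligands, 2 were higher in CD45.2 in the infarct zone (20%, against 19.5% of all genes), and in the remote zone 2 were higher and 1 lower (30.0%, against 32.0%), so these shares were near those of all genes. Ch25h, which makes the oxysterol 25-hydroxycholesterol, was higher in CD45.2, at 178.5 ± 54.5 CPM in CD45.2 IZ against 26.3 ± 11.2 CPM in CD45.1 IZ (SD, n = 3 each) and 82.1 ± 13.8 CPM in CD45.2 RZ against 13.8 ± 5.885 CPM in CD45.1 RZ. Its log2 fold changes were 2.76 (adjusted p = 0.000494) and 2.57 (adjusted p = 0.000448). Cyp27a1, which makes 27-hydroxycholesterol, was higher too, at 2.42 (adjusted p = 0.0116) and 2.35 (adjusted p = 0.00793). The list medians were 1.58 and 0.53. Hsd17b4, an enzyme of peroxisomes, did not pass, at 0.35 in the infarct and 0.34 in the remote zone. Ch25h shares exons with another gene.

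Between the zones of CD45.2 macrophages, 4 genes of these lists were higher in the infarct zone, Bhlhe40 at 2.02 (adjusted p = 0.000624), Nfil3 at 1.23 (adjusted p = 0.00969), Tgm2 at 1.96 (adjusted p = 0.0226) and Scd2 at 1.22 (adjusted p = 0.0407). Of 18 further nuclear receptor genes outside the set, 3 were counted highly enough to be tested and 0 passed between populations in either zone. Among them Nr1i3, which shares exons with another gene, was at 17.2 to 30.0 CPM.

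**Figure D5:**
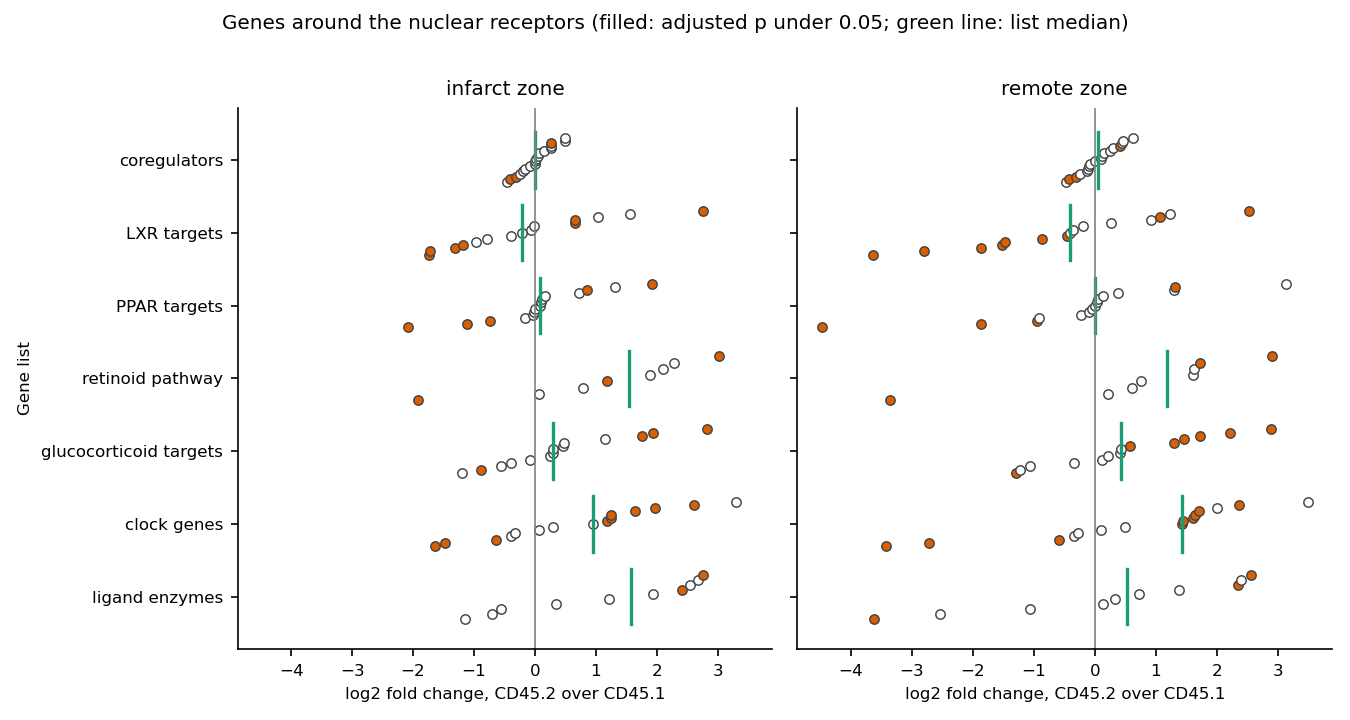
Log2 fold change of CD45.2 over CD45.1 macrophages for the tested genes of 7 lists around the nuclear receptors, in the infarct (left) and remote zone (right), with 1 point per gene, filled for adjusted p under 0.05, and a green line at the list median. Coregulator medians lie at 0.00 and 0.05, and in the remote zone genes on both sides of 0 pass in each of the 7 lists.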

How the data were processed

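RNA of sorted macrophages was made into libraries with SMART-Seq v4 and Nextera XT and sequenced on a HiSeq4000. The authors trimmed reads, aligned them with HISAT2 (2.2.1) to GRCm38.p6 and deposited raw counts per gene from featureCounts (Subread 2.0.1), as read pairs credited to every gene overlapped, without strand, so 11722 genes that share exons are uncertain. Groups came from the sample labels. Genes with low counts were filtered with filterByExpr. It asked for the CPM of 10 counts at the median library size in at least 3 libraries, and for 15 counts in all. This left 18773 genes, tested in 1 fit of the 4 groups with edgeR 4.0.16 (TMM, quasi-likelihood F-test, Benjamini-Hochberg adjustment, threshold 0.05) in R 4.3.3. SE was taken as the size of the log2 fold change over the root of F. The steps were tested on simulated data. Replicates differed by more than sampling noise. Alternatives used DESeq2 1.42.0, limma 3.58.1, other filters, scalings and sets of libraries, each library left out, and a block by run of library numbers (added after the data were seen). The members and lists were chosen with earlier results of these data known. From each list the 4 genes with the smallest adjusted p and a mean of at least 1 CPM were named, and further called genes were named after their values were seen. Promoters were from RefSeq (GRCm38.p6), with 29 of 31 members matched and 4 motifs searched (those of CREB, the GC box, nuclear receptors and the E-box). Intervals are exact, at 95%, and the floor for 0 counts is 3. Some genes of the lists are not reported here.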

Additional observations from a re-analysis of the deposited data

Results flagged for a closer look

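The zone difference of Vdr had opposite signs in the populations, at 1.20 in CD45.2 (adjusted p = 0.0285 in edgeR) and -0.32 in CD45.1 (SE 0.222, adjusted p = 0.813), where it did not pass. All 3 CD45.2 IZ libraries (3.62 to 4.43 CPM) lay above all CD45.2 RZ libraries (1.18 to 2.48 CPM), and all 3 CD45.1 IZ libraries (18.9 to 25.3 CPM) lay below all CD45.1 RZ libraries (25.5 to 28.4 CPM), though by a gap of only 25.3 against 25.5 CPM. The difference between the zone effects was 1.52 on the log2 scale (SE 0.325) and did not pass in edgeR's quasi-likelihood test (adjusted p = 0.207). It passed in DESeq2, at 1.51 (adjusted p = 0.0023), with the run of library numbers as a block, at 1.54 (adjusted p = 0.0454), and without CD45.2 RZ replicate 1, at 1.88 (adjusted p = 0.0204).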

How the results depend on the processing

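Of 140 pairs of a gene and a comparison, 22 were called, and 17 of them stayed called under each of the 22 alternatives that gave a value. The 5 others were Nr3c2 in the infarct zone, Nr1h3 and Nr2c1 in the remote zone, and Nr4a2 and Vdr between zones. Among the 17 were Nr2f6 and Nr3c2 in the remote zone and Rora in both zones. These genes share exons, and the fit without such genes drops them, so it could not end their calls. Of 118 not called, 26 passed under at least 1 alternative, and 0 reversed. Between populations in the infarct zone, 8 nuclear receptor genes became 15 with limma-voom, 13 without S104 to S107, 15 with their split as a covariate, 17 with the run of library numbers as a block and 7 to 12 with 1 library left out. In the remote zone 12 became 16 with limma-voom, 16 without S104 to S107, 16 with the covariate and 17 with the block. With 1 library left out they became 10 to 15. Between zones, 2 in CD45.2 became 5 with DESeq2, 6 with the covariate, 6 with the block, 0 with only the libraries compared and 0 to 4 with 1 library left out, and 0 in CD45.1 became 1 with DESeq2, 1 with the covariate and 1 with the block. For the difference of zone effects 0 became 2 with DESeq2, 1 with the block and 0 to 1 with 1 library left out. The cause was not tested.

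Over all genes, 3666 passed in the infarct zone. This became 6675 with limma-voom, 4097 without S104 to S107, 5457 with the covariate and 5741 with the block. It was 2133 without genes that share exons and 2173 to 4356 with 1 library left out. In the remote zone 6012 became 7463 with limma-voom, 6615 without S104 to S107, 7885 with the covariate and 8126 with the block. It was 3506 without genes that share exons and 4062 to 7228 with 1 library left out. The fit without genes that share exons tested 10988 genes, against 18773 in the main fit. Its counts here and below therefore come from a smaller set of genes. Between zones of CD45.2, 330 became 1154 with DESeq2, 674 with limma-voom, 213 without genes that share exons, 1121 with the covariate, 1457 with the block, 26 with only the libraries compared and 124 to 1099 with 1 library left out. In CD45.1, 0 became 190 with DESeq2 and 59 with the block, and for the difference of zone effects 0 became 163 and 94. The median of all genes stayed between -0.015 and 0.082. No label pairs libraries by animal. The replicate block, added after the data were seen, used the 3 runs of 4 consecutive library numbers. Deviations from the group means correlated between libraries of 1 run at 0.0775 to 0.698 (over 0.1 in 16 of 18 pairs) and between those of different runs at -0.559 to 0.270 (36 pairs). The block, with 6 residual degrees of freedom, ended 0 of the 22 calls. It made 17 calls in the remote zone and added Nr1d1, Nr1d2, Nr2c2, Rxrb and Thra in both zones, Nr1h3, Nr2f6, Nr4a1 and Pparg in the infarct zone, Nr3c1, Pparg, Rara and Rxra between zones of CD45.2, Pparg between those of CD45.1, and Vdr for the difference of zone effects. Genes under about 1 CPM rest on few counts.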
